A study of Mus musculus with 12 samples.

Results

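The genes of the secretory pathway and of vesicle transport were followed in mouse liver during fasting. They were chosen by name alone, from the start of the gene name of each array probe. The names were those of Rab, Arf and Sar1 GTPases, Arf-like proteins, sorting nexins, Vps and Sec proteins, syntaxins, VAMPs and coatomer subunits. Names of KDEL receptors, Lman cargo receptors, signal-recognition-particle and translocon-associated proteins and adaptor-complex subunits were taken too. This gave 168 of 20280 probes, for 124 of the 9079 genes named on the arrays. Of these, 12 probes for 6 genes carry such a name but belong to another kind of gene, among them the transcription factor Klf6 and the mitotic kinesin Kif20a. Livers came from male FVB mice of 6 weeks of age that were fed or had been without chow for 12, 24 or 72 hours, with 3 arrays in each of these 4 groups. Fasted animals stayed in metabolic cages, with an infrared lamp for warmth from 24 hours on, and all animals were killed in the morning. Each array held Cy3-labelled RNA pooled from 2 livers beside a Cy5-labelled reference pooled from 6 fed livers, so that 3 arrays stand for 6 mice. The fed samples and the reference were drawn from fed livers with the same numbers, which brings the fed values near 0 by construction. Values are log2 ratios of the sample to this fed pool, and a difference of 1 is a doubling.

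A hepatocyte exports most plasma proteins. Nascent chains are brought to the endoplasmic reticulum (ER) by the signal recognition particle and pass through the Sec61 channel. Cargo then leaves the ER in COPII-coated vesicles, retrieval and traffic within the Golgi use COPI coats recruited by Arf GTPases, and clathrin adaptors, sorting nexins and the retromer sort proteins in the later compartments. Rab GTPases mark each membrane, and SNAREs fuse it with the next. The regulation of these genes with feeding is the question addressed here.

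Quality differed between arrays. The median net signal of the sample channel was 158 on replicate 2 of the 12 h group and 89 on replicate 3 of the 24 h group, against 269 to 577 on the other 10 arrays. These 2 low-signal arrays were quantified on the same day as fed replicate 1 (day 1), while the other 4 arrays of the 12 and 24 h groups were quantified together on another day (day 3) that held no fed array. The other 2 fed arrays and all 72 h arrays shared a further day (day 2). For 12 and 24 h, day and fasting can therefore be separated only through the 3 arrays of day 1, whereas 72 h can be set against fed within a day. For hepatocytes, 5 genes (Alb, Apoa1, Ttr, Trf and Cyp2e1) of the 10 markers had a probe, and their 7 probes were well above background on all 12 arrays. The probes of Alb and Apoa1 were saturated on 10 of them, 1 Trf probe on 7 and the Ttr probe on 4, so that these probes show that the genes were present but not how steady their levels were. Whether a whole-liver value reflects RNA per cell or the number of cells of a type cannot be told apart.

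With all 12 arrays, none of the 167 member probes that passed the signal filter was called at any time. A call required an adjusted p under 0.05 over all probes tested (limma, Benjamini-Hochberg) and a difference of at least 1.4-fold. The lowest adjusted p among the members was 0.956 at 12 h. Over all probes tested, 0.00497% were called at 12 h, 0.00497% at 24 h and 0.00996% at 72 h, so that the background too was close to 0. An unadjusted p under 0.05 was reached by 5 members at 12 h (2.99%, against 3.92% of all probes), by 3 at 24 h (1.80%, against 3.04%) and by 3 at 72 h (1.80%, against 1.55%). The median difference of the members from fed, on the log2 scale, was -0.037 at 12 h, -0.0069 at 24 h and 0.022 at 72 h, beside -0.0056, -0.0022 and -0.015 for all probes.

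**Figure D1:**
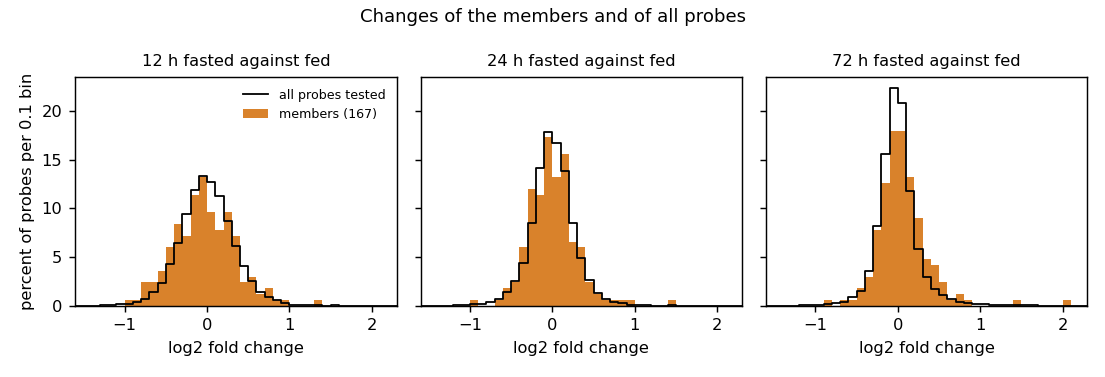
Histograms of the log2 fold change of fasted against fed liver for the 167 member probes tested (bars) and for all probes tested (line), in percent of probes per bin of 0.1, at 12, 24 and 72 h with all 12 arrays. At 72 h a right-hand tail holds 10 members at least 1.4-fold above fed (5.99%, against 3.68% of all probes), and 3 lie that far below (1.8%, against 2.25%). At 12 h, 14 lie that far above (8.38%, against 6.68%) and 17 below (10.2%, against 6.12%). At 24 h, 8 lie above (4.79%, against 3.4%) and 7 below (4.19%, against 3.33%).

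Among the members, Arl4a, a small GTPase of the Arf-like group that acts at the plasma membrane, had the largest difference from fed at 72 h. The fed arrays read -0.24, 0.26 and -0.11, and the 72 h arrays read 2.10, 2.60 and 1.44, so that the groups were far apart. The difference was 2.07 ± 0.66 (SE, n = 3 against 3), or 4.21-fold, with an unadjusted p of 0.00912 in limma's test. At 12 h the arrays read 2.10, -0.35 and 2.26, and at 24 h 1.98, 1.83 and 0.33. In both of these groups the low-signal array stood apart from the other 2, which lay as high as at 72 h.

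Atl2, which encodes atlastin 2 and is on the arrays under its older name Arl6ip2, came next. Atlastins are GTPases that fuse ER tubules into a network. Its fed arrays read 0.23, 0.43 and -0.06, and its 72 h arrays 1.56, 2.17 and 1.21, without overlap. The difference was 1.44 ± 0.58 (SE, n = 3 against 3) with an unadjusted p of 0.0293 by limma. The 12 h values of 1.03, -0.99 and 1.50 and the 24 h values of 1.31, 1.33 and 0.07 again placed the low-signal array below the other 2.

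A further gene of the same name group read lower than fed at 72 h. Arl6ip1, whose product shapes ER tubules, read 0.90, 0.52 and 0.11 in fed liver and -0.46, -0.10 and 0.10 at 72 h, a difference of -0.67 ± 0.29 (SE, n = 3 against 3, unadjusted p = 0.0441 by limma). The lowest fed array and the highest 72 h array differed by little. The Arf-like group takes in Atl2, Arl6ip1 and Arl6ip6 by name alone, whereas Arl6ip4 was counted with the other kind of gene. Of the 8 probes of this group, 5 were above fed at 72 h, with a median difference of 0.17.

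**Figure D2:**
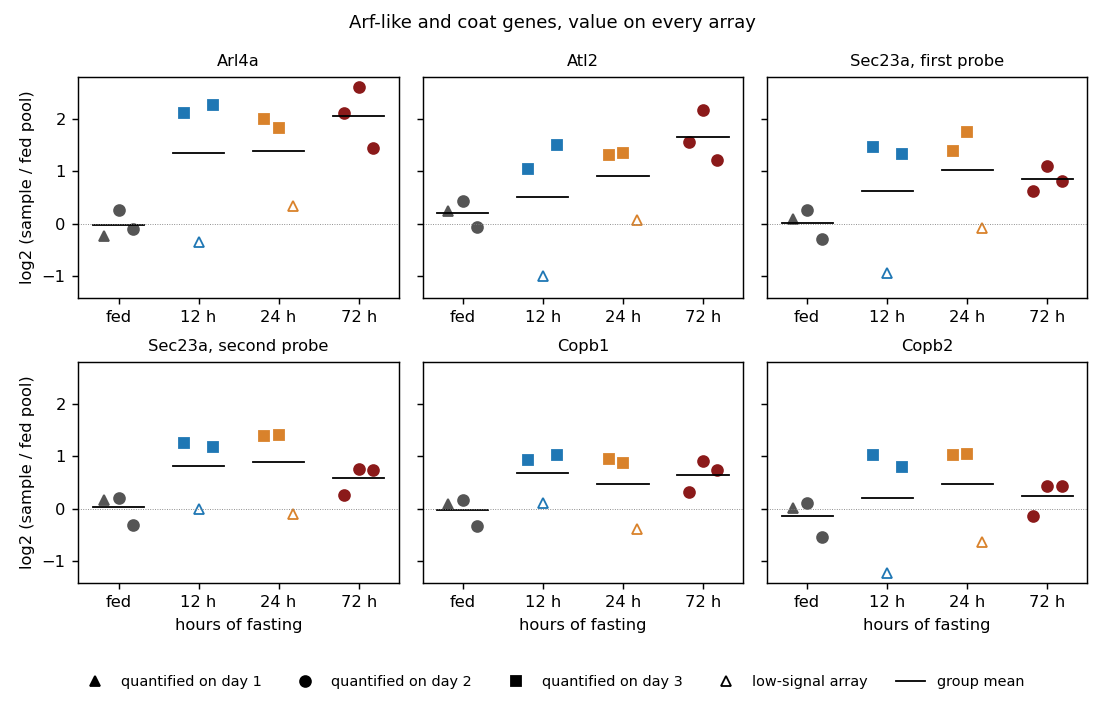
Log2 ratio of sample to fed pool on each array for Arl4a, Atl2, both probes of Sec23a, Copb1 and Copb2. Points are arrays, shaped by quantification day, open triangles are the 2 low-signal arrays and bars are group means. In each panel the filled 12 and 24 h points lie above all fed points, and the open point of each group lies below the filled ones.

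The COPII list held 4 probes for 3 genes. Sec23a, an inner-coat protein that activates the Sar1 GTPase when a vesicle buds from the ER, had 2 probes, which followed each other across the arrays (r = 0.927 over 12 arrays, a description in which both probes share every library). The first probe read 0.09, 0.25 and -0.29 in fed liver, 1.46, -0.94 and 1.32 at 12 h, 1.39, 1.74 and -0.09 at 24 h, and 0.62, 1.10 and 0.82 at 72 h. The second read 0.18, 0.20 and -0.30 in fed liver, 1.24, 0.00 and 1.18 at 12 h, 1.38, 1.4 and -0.10 at 24 h, and 0.26, 0.76 and 0.73 at 72 h. On both probes every 72 h array lay above every fed array. The second probe has its gene name in 1 of the 2 versions of the array's annotation, and the other version marks it as unknown. With all arrays the first probe differed from fed by 0.83 ± 0.61 at 72 h (SE, n = 3 against 3), which is little more than its error.

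Its paralogue Sec23b stayed near the pool, with values from -0.15 to 0.14 on the 10 arrays that measured it. The cargo receptor Lman1 (ERGIC-53), which carries glycoproteins from the ER, ranged from -0.04 to 0.42 in fed liver and from -0.24 to 0.19 at 72 h. On the low-signal arrays it read -2.71 at 12 h and -0.71 at 24 h, against 0.18 to 0.63 on the other 4 arrays of these groups.

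Among the coatomer subunits, which form the COPI coat, Copb1 read 0.09, 0.17 and -0.33 in fed liver and 0.32, 0.90 and 0.73 at 72 h, without overlap. Its 12 h values were 0.93, 0.12 and 1.01, and its 24 h values were 0.95, 0.87 and -0.40. Copb2, the other beta-type subunit, read 0.01, 0.10 and -0.53 in fed liver, 1.02, -1.22 and 0.80 at 12 h, 1.02, 1.04 and -0.64 at 24 h and -0.14, 0.43 and 0.43 at 72 h. For Copb2 the 72 h and fed values overlapped. Arf6, a GTPase of the cell periphery, read 0.30 and 0.02 on the fed arrays that measured it and 0.32 and 0.61 at 72 h (0.31 ± 0.30, SE, n = 2 against 2). The COPI list had 15 probes for 12 genes, with medians of -0.10 at 12 h, -0.05 at 24 h and 0.05 at 72 h.

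The 250 bases before the gene start are shown for Arl4a, Atl2, Sec23a, Copb1 and Copb2. The values of these genes moved together over the 12 and 24 h arrays. The low-signal array was the lowest of each group, as it was for most members. The sequences come from RefSeq (GRCm38.p6), on the strand of the gene, with capitals for the motifs searched.
Arl4a (chr12:40037988-40038237, minus strand): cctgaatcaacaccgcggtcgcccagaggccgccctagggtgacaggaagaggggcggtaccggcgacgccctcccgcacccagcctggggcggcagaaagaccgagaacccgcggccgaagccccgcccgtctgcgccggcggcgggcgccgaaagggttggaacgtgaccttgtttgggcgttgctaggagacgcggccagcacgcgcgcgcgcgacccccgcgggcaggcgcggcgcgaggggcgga
Atl2 (chr17:79896124-79896373, minus strand): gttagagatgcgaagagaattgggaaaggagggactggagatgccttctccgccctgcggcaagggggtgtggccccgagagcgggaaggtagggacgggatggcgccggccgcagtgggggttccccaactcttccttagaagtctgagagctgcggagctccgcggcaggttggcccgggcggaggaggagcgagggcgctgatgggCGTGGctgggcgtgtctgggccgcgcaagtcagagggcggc
Sec23a (chr12:59012018-59012267, minus strand): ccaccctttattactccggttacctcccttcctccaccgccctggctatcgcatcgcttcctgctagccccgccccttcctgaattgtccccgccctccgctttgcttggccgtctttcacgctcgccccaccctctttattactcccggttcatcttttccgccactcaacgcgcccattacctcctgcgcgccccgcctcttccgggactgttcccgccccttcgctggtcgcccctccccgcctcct
Copb1 (chr7:114254681-114254930, minus strand): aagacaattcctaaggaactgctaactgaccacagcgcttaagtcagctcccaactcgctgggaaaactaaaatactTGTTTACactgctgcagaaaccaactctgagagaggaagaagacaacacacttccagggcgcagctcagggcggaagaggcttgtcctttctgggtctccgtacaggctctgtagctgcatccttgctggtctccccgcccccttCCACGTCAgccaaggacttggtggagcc
Copb2 (chr9:98563481-98563730, plus strand): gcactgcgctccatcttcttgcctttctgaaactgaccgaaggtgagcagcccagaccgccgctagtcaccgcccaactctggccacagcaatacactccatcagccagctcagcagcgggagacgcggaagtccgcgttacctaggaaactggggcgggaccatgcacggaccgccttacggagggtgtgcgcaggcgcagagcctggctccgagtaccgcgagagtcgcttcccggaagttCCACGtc
On both strands 4 motifs were searched: the cyclic-AMP response element TGACGTCA, the unfolded-protein-response element TGACGTGG, the short motif CCACG of ER stress elements, which is contained in the reverse complement of the previous one, and the forkhead motif TGTTTAC. Copb1 held TGACGTGG with the overlapping CCACG, and a TGTTTAC farther upstream. Atl2 and Copb2 each held CCACG, and Arl4a and Sec23a held none of the 4. Of the 32851 promoters in the table, 0.563% held TGACGTGG, 28.3% CCACG, 1.55% TGACGTCA and 3.17% TGTTTAC. Over the 113 promoters found for 96 of the 118 member genes that belong to the pathway, the shares were 1.77%, 46.0%, 3.54% and 2.65%. A match of letters describes the window and does not show that a factor binds there.

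The ER targeting list (13 probes, 10 genes) held the member farthest below fed at 72 h. Sec61g, the small gamma subunit of the Sec61 channel, read 0.29, 0.36 and 0.06 in fed liver, -0.44, -0.53 and -1.31 at 24 h, and -1.09, -0.60 and -0.23 at 72 h. Neither group overlapped with fed. The difference at 72 h was -0.88 ± 0.49 (SE, n = 3 against 3, unadjusted p = 0.103 by limma). The 12 h values of 0.25, -2.0 and -0.20 overlapped the fed range. The gene name of this probe is in 1 of the 2 versions of the array's annotation, and the other version marks the probe as unknown.

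Sec61a1, the channel itself, had 2 probes that disagreed. The first read -0.03, 0.07 and -0.14 in fed liver and between -0.52 and -0.19 on all 9 fasted arrays, with differences of -0.27, -0.32 and -0.21 at 12, 24 and 72 h (unadjusted p = 0.047 at 24 h by limma, adjusted p above the threshold). The second read 0.90, 0.59 and 0.07 in fed liver, 1.57, 0.26 and 1.01 at 12 h, 1.26, 1.14 and 0.19 at 24 h, and 0.10, 0.98 and 0.78 at 72 h, with differences of 0.43, 0.34 and 0.10. Ssr1, a subunit of the translocon-associated complex, differed from fed by -0.74 at 12 h, -0.58 at 24 h and -0.45 at 72 h, each with an SE of 0.37. No member of the list passed the test after adjustment, and the list's medians were -0.16, -0.11 and -0.05.

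**Figure D3:**
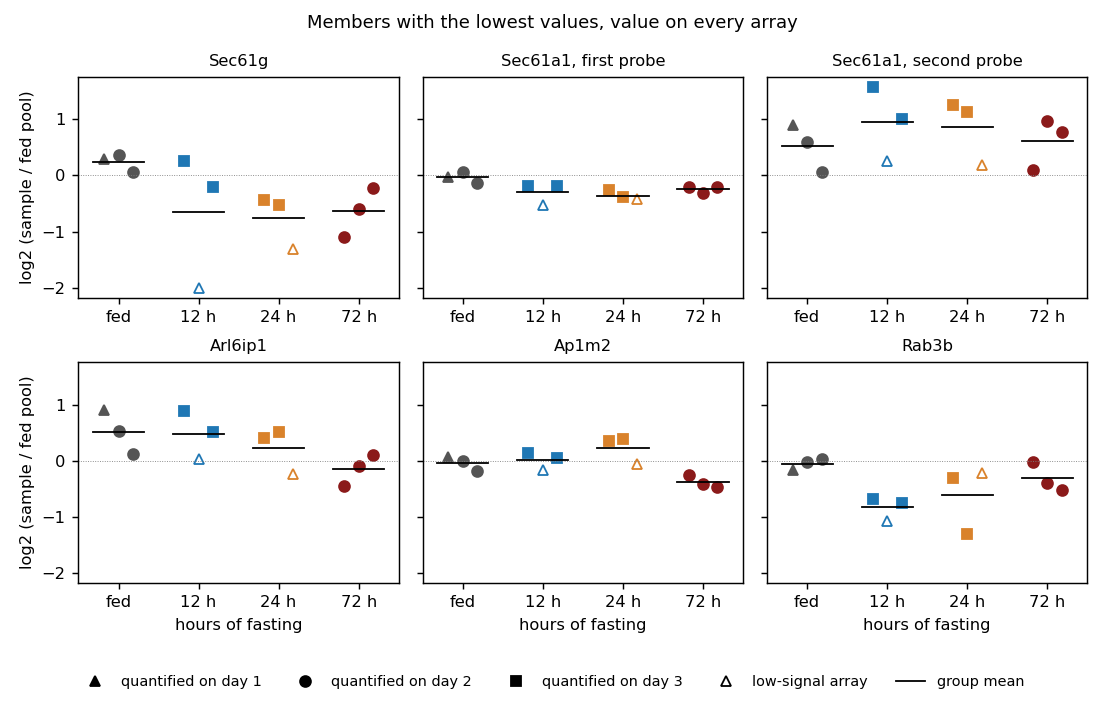
Log2 ratio of sample to fed pool on each array for Sec61g, both probes of Sec61a1, Arl6ip1, Ap1m2 and Rab3b, with points shaped by quantification day, open triangles for the 2 low-signal arrays and bars for group means. Sec61g and the first Sec61a1 probe lie below fed on every 24 and 72 h array, and the second Sec61a1 probe does not.

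The Rab list was the largest, with 44 probes for 31 genes, of which 43 probes were tested. At 12 h, 3 of them had an unadjusted p under 0.05 by limma, all below fed (6.98%, beside 1.93% of all probes below fed at this level). Rab3b, from the Rab3 group of regulated exocytosis, read -0.17, -0.03 and 0.03 in fed liver and -0.68, -1.07 and -0.75 at 12 h (difference -0.78 ± 0.27, SE, n = 3 against 3, unadjusted p = 0.0148 by limma). All of its 12 h arrays, the low-signal one included, lay below all fed arrays. Rab3a differed by -0.62 ± 0.27 and Rab19 by -0.42 ± 0.16 (SE) at 12 h. By 72 h these 3 differed from fed by -0.27, -0.19 and 0.04. Rab40c had 2 probes that both read above fed at 72 h, by 0.41 and 0.41. One annotation version names both probes, and the other marks 1 of them as unknown. Rab7, which directs late endosomes to lysosomes, read 0.56, 0.20 and 0.01 in fed liver and 0.67, 1.34 and 0.93 at 72 h, without overlap. The median difference over the Rab list was -0.11 at 12 h, 0.02 at 24 h and 0.03 at 72 h.

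Of the 23 probes for SNAREs and their binding proteins, the plasma-membrane syntaxin Stx2 read 0.34, 0.00 and 0.00 in fed liver and 0.75, 1.31 and 0.14 at 12 h (0.62 ± 0.25, SE, n = 3 against 3, unadjusted p = 0.0327 by limma). Its values returned to between -0.13 and 0.07 at 72 h. Stxbp4, a syntaxin-binding protein, read 0.14, -0.01 and 0.26 in fed liver and -0.19, -0.28 and -0.19 at 12 h, without overlap (-0.35 ± 0.17, SE). Stx1a, a syntaxin best known from neurons, differed by -0.47 ± 0.20 (SE) at 24 h. Vamp8, an endosomal and secretory-granule SNARE, read 0.22, 0.26 and -0.11 in fed liver and 0.33, 1.22 and 1.16 at 72 h, and Vamp2 differed from fed by 0.40 ± 0.20 (SE) at that time. The medians of the list were -0.03, -0.09 and 0.02.

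In the adaptor list (18 probes, 16 genes), Ap1s1, the small subunit of the AP-1 clathrin adaptor, had a narrow fed range of 0.04 to 0.10. It read 0.60, 0.47 and 0.32 at 12 h, and 0.40 and 0.71 on the 2 arrays of the 24 h group that measured it. The differences were 0.38 ± 0.15 at 12 h (SE, n = 3 against 3, unadjusted p = 0.026 by limma) and 0.47 ± 0.16 at 24 h, and 0.05 at 72 h. Ap1m2, the medium subunit of the epithelial form of AP-1, ran from -0.18 to 0.06 in fed liver, to 0.36, 0.39 and -0.06 at 24 h and to -0.26, -0.42 and -0.48 at 72 h. Its 72 h arrays were below all fed and all 24 h arrays.

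Among the 30 probes for endosomal sorting, both probes of the sorting nexin Snx9, which bends membranes at endocytic sites, read above fed at each time, by 0.36 and 0.29 at 12 h, by 0.30 and 0.33 at 24 h and by 0.38 and 0.50 at 72 h. The SE of these differences was 0.17 to 0.25. For Vps54, a subunit of the tethering complex for retrograde traffic to the Golgi, 1 of 4 probes differed by 0.34 ± 0.17 (SE) at 24 h. The medians of this list were 0.02, -0.02 and 0.05. Exoc6, which stood alone for the exocyst that tethers secretory vesicles, differed from fed by 0.50 ± 0.30 (SE) at 12 h, 0.11 at 24 h and -0.06 at 72 h.

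**Figure D4:**
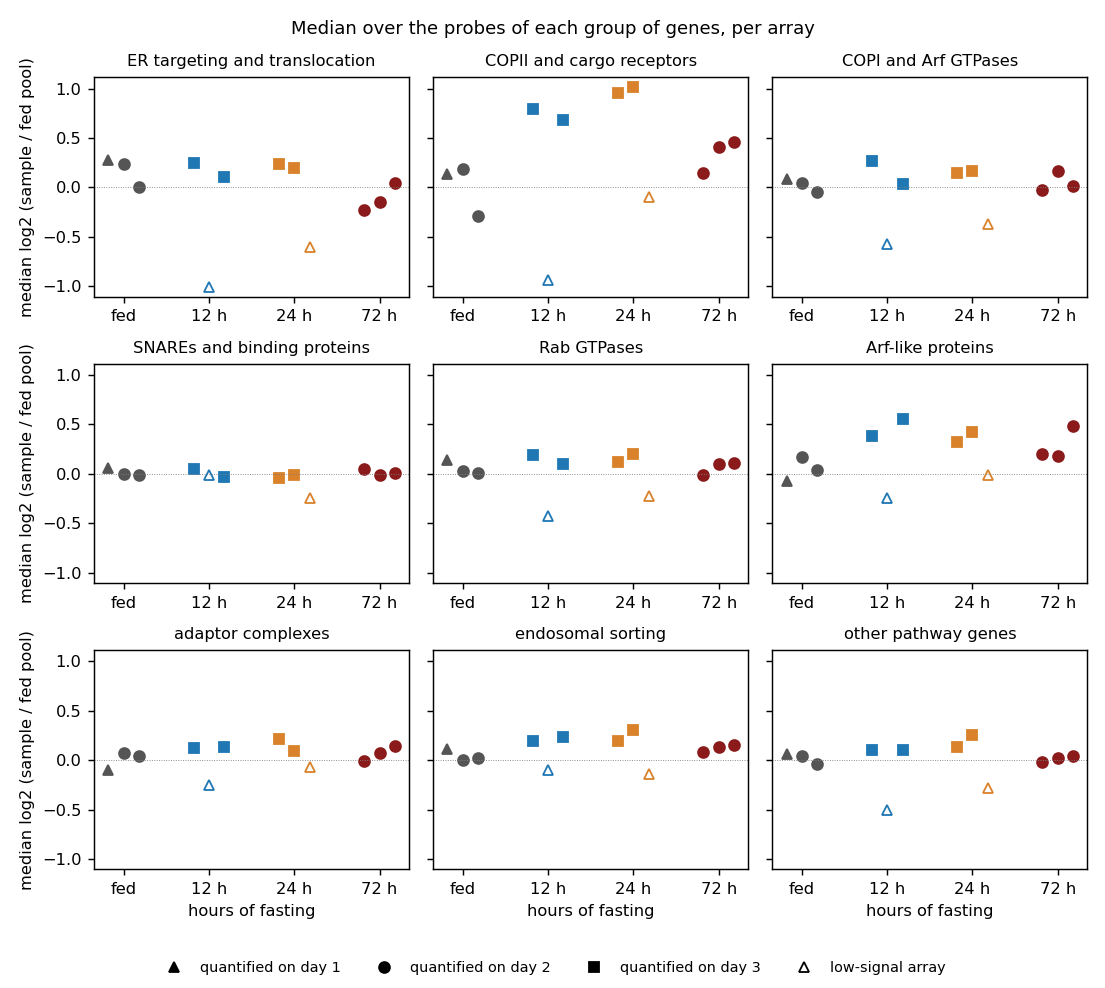
Median log2 ratio of sample to fed pool over the probes of each list, with 1 point per array, shaped by quantification day. Open triangles are the 2 low-signal arrays. In every panel except that of the SNAREs the open points lie below all other 12 and 24 h points. The SNARE medians stay between -0.25 and 0.07 on all 12 arrays.

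For most members the 2 low-signal arrays read lowest in their groups. Among the 157 members measured on all 12 h arrays, replicate 2 was the lowest array for 100 (63.7%), against 47.5% of all probes. Among the 165 members measured on all 24 h arrays, replicate 3 was the lowest for 109 (66.1%), against 42.9% of all probes. The median log2 ratio of the members was -0.23 and -0.15 on these arrays and 0.09 to 0.16 on the other 4 arrays of both groups.

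Without both arrays, 7 member probes were called above fed and 0 below at 12 h, 21 above and 6 below at 24 h, and 2 above and 0 below at 72 h (limma, Benjamini-Hochberg). The shares above fed were 4.19%, 12.6% and 1.2% of the members, beside 1.71%, 5.21% and 0.687% of all probes. The shares below fed were 0%, 3.59% and 0%, beside 0.895%, 3.61% and 0.149%. The genes named next were taken from these calls after their values had been seen. At 12 h the calls were Arl4a (4.61-fold, adjusted p = 0.0074), Sec23a by both probes (2.59-fold and 2.28-fold), Copb2 (2.07-fold), Copb1 (2.00-fold), the AP-3 subunit Ap3d1 (1.70-fold) and Arl3 (1.46-fold), a GTPase of cilium traffic. The 24 h comparison uses the same fed arrays. In it Arl4a was 3.82-fold above fed, the Sec23a probes 2.92-fold and 2.58-fold, Copb2 2.25-fold, Copb1 1.91-fold, Ap3d1 1.86-fold and Arl3 1.41-fold, each called.

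At 24 h further members were called. Those of the signal recognition particle were Srp54a (1.77-fold), Srp14 (1.59-fold) and Srp9 (1.46-fold). Of the ER-to-Golgi and Golgi GTPases, Arf4 was 2.32-fold, Rab6a 2.14-fold, Rab2a 1.80-fold and Rab1a 1.69-fold above fed, and the adaptor subunits Ap3b1 and Ap3m1 were 1.90-fold and 1.83-fold above. Atl2 was 2.17-fold above fed, and Rab14, Rabep1, Exoc6 and the retromer subunit Vps35 were also called. Among the probes below fed were Rab23, the coatomer subunit Copg2 (1.61-fold), the ESCRT ATPase Vps4b and both probes of Copg2as2, a transcript antisense to Copg2 whose probes the annotation marks as possibly on the wrong strand.

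**Figure D5:**
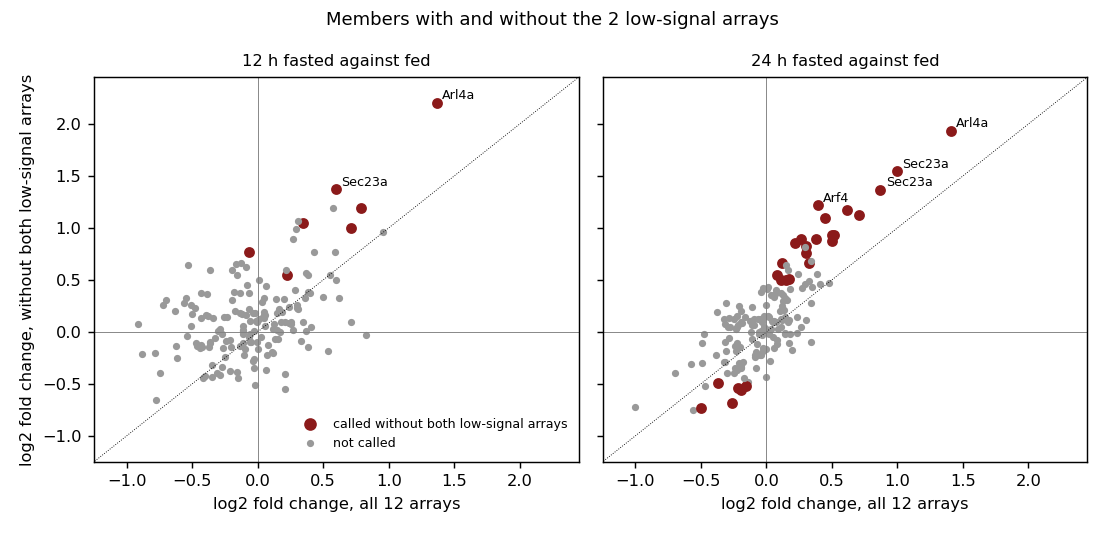
Log2 fold change of each member probe against fed with all 12 arrays (horizontal) and without the 2 low-signal arrays (vertical), at 12 and 24 h. Large points are the probes called without these arrays, 7 at 12 h and 27 at 24 h, and the dotted line marks equal values.

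These calls set arrays quantified on day 3 against fed arrays quantified on other days, so that fasting and day cannot be told apart in them. The low-signal 24 h array read below the fed mean for 20 of the 21 probes called above fed, with Arl4a as the exception. With the day as a block in the model, which compares 12 and 24 h with fed through the 3 arrays of day 1, 19 of the 21 were estimated below fed at 24 h, the exceptions being Arl4a (0.25) and Ap3m1 (0.10). With this block, 13 members were called above and 43 below fed at 12 h, and 6 above and 19 below at 24 h. The shares above fed were 8.02% and 3.70% of the members tested, beside 11.7% and 7.26% of all probes, and the shares below fed 26.5% and 11.7%, beside 12.1% and 5.31%. The directions of Sec23a, Copb1, Copb2 and the Srp and Rab genes at 12 and 24 h thus depend on which arrays carry the comparison.

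At 72 h the comparison can be made within a day, with 3 fasted and 2 fed arrays. No member was called there (0.021% of all probes were), and the lowest adjusted p of a member was 0.143, for Arl4a. An unadjusted p under 0.05 by limma was reached by 20 members above fed (12.2% of 164, beside 6.91% of all probes) and by 6 below (3.66%, beside 5.67%). Arl4a was 3.91-fold above fed (1.97 ± 0.31 on the log2 scale, SE, n = 3 against 2) and Atl2 2.75-fold (1.46 ± 0.28). The Sec23a probes were 1.82-fold and 1.55-fold above, Copb1 1.66-fold and 1 of 3 Srp54a probes 1.38-fold. The late-endosomal genes Rab7 and Vps11, a subunit of the tethering complex that works with Rab7, were 1.83-fold and 1.52-fold above. Vamp8, Vamp2, both Rab40c probes, 1 Snx9 probe and Ap3d1 were in the same set. Its other members were Arl3, Arl6ip6, 1 of 3 probes each of Snx2 and Vps26a, and 1 of 2 probes each of Snx4 and Rab18. The 6 below fed were Sec61g (1.80-fold), Arl6ip1, Ap1m2, Ap2b1, Rab3a and Snx3. By contrast Srp9, Srp14, Arf4 and Rab1a, called at 24 h without the low-signal arrays, differed from fed by -0.03, -0.05, 0.08 and 0.13 within this day, with SE of 0.14 to 0.23.

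The groups were also compared by counting arrays. Of the 115 members measured on all fed and 72 h arrays, 19 had every 72 h array above every fed array (16.5%, beside 9.20% of all probes) and 7 had every one below (6.09%, beside 9.66%). At 12 h 6 members lay wholly above and 5 wholly below (5.22% and 4.35%, beside 6.45% and 6.20%), and at 24 h 4 above and 4 below (3.36% and 3.36%, beside 6.66% and 4.77%).

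Between fasting times, no member was called with all arrays, either at 24 h against 12 h (0% of all probes) or at 72 h against 24 h (0%). An unadjusted p under 0.05 by limma was reached by 0 members (0.945% of all probes) and by 5 (2.99%, beside 3.42%). The 5 were Rab40c and Vamp3, higher at 72 h, and Stx2, Ap1m2 and Ap1s1, lower. Without the low-signal arrays 4 members were called (2.40%, beside 1.30% of all probes), among them Arf4, Rab6a and Ap1m2, which were lower at 72 h than at 24 h.

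Probes of the same gene agreed poorly. Of the 29 genes with at least 2 tested probes, all probes had the same sign of difference from fed for 11 genes at 12 h, 12 at 24 h and 15 at 72 h. Over the arrays, the median correlation between probes of the same gene was 0.21 over 61 pairs, against 0.14 over 13795 pairs of probes of different members. These correlations describe probes that share every array. Sec23a (0.927), Rab1a (0.833), Stx3 (0.804) and Rab12 (0.798) had probes that followed each other. In each of these pairs 1 probe has its gene name in only 1 annotation version. The 2 probes of Rab6a (-0.898) and of Vps4b (-0.753) ran opposite. For Rab6a, 1 probe was 1.10 above fed at 24 h without the low-signal arrays and the other -0.28, so that its call rests on 1 of 2 probes. The same holds for Srp54a (1 of 3 probes), Rab14 (1 of 4), Vps4b and Rab23 (1 of 2 each). Rab1a was called by 1 of 2 probes, and the other differed by 0.21 in the same direction.

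Other genes of the pathway that the name rule does not take in, such as Golgi matrix proteins, p24 cargo receptors, the oligosaccharyl transferase and Rab regulators, had 114 probes for 77 of the 100 genes listed. None was called with all arrays (limma). An unadjusted p under 0.05 was reached by 2 probes at 12 h, 1 at 24 h and 1 at 72 h. The shares of all probes at this level were 3.92%, 3.04% and 1.55%. Their median differences were -0.11, -0.01 and -0.01. Without the low-signal arrays 4 were called above fed at 12 h (3.51%, beside 1.71% of all probes), 6 above and 1 below at 24 h (5.26% and 0.877%, beside 5.21% and 3.61%), and 2 above at 72 h (1.75%, beside 0.687%), calls in which day and fasting cannot be told apart at 12 and 24 h. With the day block the counts were 7 above and 34 below at 12 h, 5 above and 20 below at 24 h, and 0 at 72 h. Of all probes, this block called 11.7% above and 12.1% below at 12 h, 7.26% and 5.31% at 24 h, and 0.021% at 72 h. Rabggtb is the catalytic subunit that attaches lipid anchors to Rab proteins. Without the low-signal arrays it was 2.10-fold, 1.97-fold and 2.33-fold above fed at the 3 times. In the same setting 1 probe of the p24 protein Tmed5 was 2.98-fold, 2.22-fold and 1.79-fold above fed. With all 12 arrays the log2 differences were 0.40, 0.47 and 1.22 for Rabggtb and 0.67, 0.53 and 0.84 for this Tmed5 probe.

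Leukocyte and macrophage markers, on 7 probes for 6 of 10 genes, had median log2 ratios of -0.04 to -0.03 on the fed arrays, -1.08 to 0.08 at 12 h, -0.27 to -0.24 at 24 h and -0.31 to -0.08 at 72 h, with the lowest value on the low-signal 12 h array. Of the 7 hepatocyte probes, some of them saturated, Ttr and 1 of the 2 Trf probes differed from fed by -1.35 and -1.11 at 72 h (unadjusted p = 0.00109 and 0.00106 by limma). These were the extremes of the list. Over its 7 probes the median difference at 72 h was -0.13, 2 lay above fed, and the lowest adjusted p was 0.784 by limma. Of the other markers, 7 of 10 endothelial and stellate genes, 3 of 4 of cholangiocytes and 1 of 4 of pancreatic acini had a probe, and 0 of 4 of red cells. The part of these differences in the members' values was not tested.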

How the data were processed

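Expression was measured on 12 two-colour Agilent mouse oligonucleotide arrays, grouped by their deposited titles. The scanner files, as deposited, give median pixel intensities of each spot and its background from Agilent's Feature Extraction software, with quality marks and log10 ratios of reference to sample that the software normalized within each array. The deposited value table holds the same log10 ratios with the sign turned (largest difference 4.98e-08). The authors worked on background-subtracted, quantile-normalized medians and tested with an analysis of variance. No dye swap was made, so a probe's dye effect is the same in all groups.

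Of 21446 spots, 1075 controls and 91 retired probes were left out. Intensities were background-corrected (normexp, offset 50), quantile-normalized across all 24 channels and turned into log2 ratios of sample to reference, and spots marked as outliers were set to missing (0.345% to 24.7% of probes per array, the most on fed replicate 2). A probe passed the signal filter if some group had it well above background on each of its arrays, which left 20116 probes and 167 of 168 members (Rab5a had 1 probe that failed). Groups were compared with limma (version 3.58.1, R 4.3.3), all arrays sharing 1 estimate of spread. The number of arrays limits the precision. The code was tested on simulated data.

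The arrays carry 2 annotation versions, on 9 and 3 arrays. A probe was a member if either matched, with names brought to current symbols through RefSeq: 145 probes matched by the first, 135 by the second and 112 by both, and after that step 135 had the same current gene in both, 31 a gene in 1 version and 2 a different gene in each. Members and lists were chosen with earlier results of these data known. Genes were named by a rule: called members, the 5 highest and 5 lowest by moderated t at each time, the largest F of each list, and genes with several probes, which are summarised by counts with examples. A member called in an alternative is not reported here. No paired design was assumed: deviations of same-numbered arrays correlated between -0.59 and 0.59. Alternatives covered background, normalization, outliers, filter, weights, batch and each array left out.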

Additional observations from a re-analysis of the deposited data

How the results depend on the processing

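The count of 0 members called at each time was kept with plain background subtraction, loess normalization, the scanner's log ratios, the sample channel alone, outlier spots kept, no filter on dim probes, both narrower readings of the gene names (chosen after seeing the data) and a replicate block, and with each of the 12 arrays left out in turn (0 to 0 members in all 5 comparisons). It was not kept under 4 other choices. Array weights called 27 members at 12 h, 23 at 24 h, 12 at 72 h and 10 at 72 h against 24 h (16.2%, 13.8%, 7.19% and 5.99%, beside 9.53%, 10.5%, 4.09% and 4.26% of all probes). Leaving out both low-signal arrays gave 7, 27, 2 and 4 (4.19%, 16.2%, 1.2% and 2.4%, beside 2.6%, 8.81%, 0.837% and 1.3% of all probes). Blocking on the quantification day called 56, 25 and 0 at the 3 times and 13 at 72 h against 24 h. These were 34.6%, 15.4%, 0% and 8.02% of the members, beside 23.8%, 12.6%, 0.021% and 9.85% of all probes. A consensus of 2 unadjusted tests called 1 member at 12 h (Rab3b, lower), 0 at 24 h and 2 at 72 h (Arl4a higher, Sec61g lower). Over all probes it called 27, 52 and 74 at these times. For scale, 20116 probes passed the signal filter, 167 of them members. For 24 h against 12 h the count was 0 in every setting run, within the day of 4 arrays too (limma), where 10 members had an unadjusted p under 0.05 (5.99%, beside 2.97% of all probes).

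The median difference of the members moved from -0.037 at 12 h to 0.11 with array weights, 0.095 without both low-signal arrays, 0.095 without replicate 2 of the 12 h group and -0.32 with the day block, and from -0.0069 at 24 h to -0.33 with the day block. With each array left out it ranged from -0.077 to 0.095 at 12 h, from -0.050 to 0.090 at 24 h and from 0.019 to 0.041 at 72 h. With the replicate block it was -0.031, 0.0063 and 0.040. The numbers of the replicates do not pair animals. No value here can separate quantification day from fasting at 12 and 24 h except through the day that holds both low-signal arrays.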
